A study of Homo sapiens with 20 samples.

Results

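The receptors, co-receptors and GLI factors of Hedgehog signaling were examined in orthotopic ovarian tumors. The genes were taken by symbol from a list whose members were chosen with earlier results of these data known, and are *PTCH1*, *SMO*, *GLI1*, *GLI2*, *GLI3*, *HHIP*, *GAS1*, *BOC* and *CDON*, 9 of the 24196 genes in the table. RNA-seq had been performed on 8 tumors of the human ovarian cancer line OVCAR8, 4 of them under PBS and 4 under gluconate. The deposited labels call these samples tumors, whereas the study's text speaks of treated cells, and the labels were followed. Per the methods, NSG mice, which lack T, B and NK cells, were injected with tumor cells in the fat pad of the ovary at 6 weeks of age. The study's legend names the cells of the treatment experiment as luciferase-tagged OVCAR8-*sgNC*, the control line of the knockouts. The labels of these tumors do not name this genotype. Sodium gluconate was given i.p. at 1 mg/kg each week for 35 days. All tumors thus stem from a single cell line in an immunodeficient host, and the labels do not say whether each library came from a separate mouse, so that p values measure only the spread between these libraries. How reads of mouse origin were treated is not given in the sources used here.

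In Hedgehog signaling, a secreted ligand binds PTCH1, the receptor that in the absence of ligand holds back SMO, a transmembrane protein that transmits the signal through the primary cilium. CDON, BOC and GAS1 are co-receptors that help the ligand bind, and HHIP binds the ligand and takes it away from the receptor. GLI2 and GLI3 are the zinc-finger factors that read the signal, GLI2 chiefly as an activator and GLI3 chiefly as a repressor, while *GLI1*, *PTCH1* and *HHIP* are themselves transcribed in response to it and serve as readouts of pathway activity.

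Values are FPKM, the fragments of a gene scaled by its length and by the fragments of its library. Levels of different genes can be compared only as far as the lengths used hold. These lengths differed from the exon bases of GENCODE 29, at 11255 against 7341 for *GLI2* and 14116 against 10950 for *GLI3*. For *CDON* they were 8712 against 10600, and for *PTCH1* 9856 against 16591. The values fell on whole fragments for all genes, which showed that PBS replicate 4 held 3953206 fragments and the other 7 libraries 39325749 to 46551535. Intervals below are 95% Poisson intervals on these fragments and cover counting error only. Since PBS replicate 4 stands apart, results are given with and without it. Of the 11 epithelial markers, 7 (among them *PAX8*, *EPCAM* and *KRT8*) were at 1 FPKM or more in every library, while *MUC16*, *CDH6* and *SOX17* were under 0.5 in all. The remaining marker, *MECOM*, was 2.21 FPKM in PBS replicate 4 and at most 0.205 FPKM elsewhere. The summed fibroblast markers came to 45.3 FPKM in PBS replicate 4, against 130 to 192 in the other 7 libraries. Most of the sum was *COL1A1*, at 41.4 FPKM there and 121 to 182 FPKM in the others. *PDGFRB*, *LUM*, *COL3A1* and *FAP* were also lowest there. *PDGFRA*, *DCN*, *THY1* and *POSTN* were under 0.5 FPKM throughout.

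*PTCH1* is shown by sequence because it is the receptor, a readout of the pathway, and the gene with the widest spread. The gene lies on the minus strand of chr9:95442980-95517057 in GRCh38. The gene was also a target of RT-qPCR. The primer pair matched 8 of the 27 *PTCH1* transcripts in GENCODE 29 and enclosed a product of 133 bases. In most of these transcripts the forward primer lay in exon 15 of 24 (chr9:95467123-95467144) and the reverse primer in exon 16 (chr9:95461895-95461916).
PTCH1 forward primer: gctgcactacttcagagactgg
PTCH1 reverse primer: caccaggagtttgtaggcaagg

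The promoter windows of RefSeq (GRCh38.p14, 250 bases before to 50 after a transcription start) were searched on both strands for the GLI consensus GACCACCCA. Windows were found for 7 of the 9 genes, 15 windows in all, and the motif was present in 1 of them, a *PTCH1* window at chr9:95509217-95509516 on the minus strand, where it lay 172 bases before the start. Among all 35116 windows of this length, 83 (0.236%) held it. The window is printed because *PTCH1* is the member most often used as a GLI target, with the match (the reverse complement of the consensus) in capitals. A match is a description of the letters and not a site of binding.
PTCH1 promoter window: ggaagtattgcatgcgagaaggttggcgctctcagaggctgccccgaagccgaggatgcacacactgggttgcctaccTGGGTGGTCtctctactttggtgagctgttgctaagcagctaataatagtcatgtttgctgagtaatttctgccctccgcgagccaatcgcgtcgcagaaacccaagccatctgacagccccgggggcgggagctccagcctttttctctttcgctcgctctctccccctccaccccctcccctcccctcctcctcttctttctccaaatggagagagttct

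By mean log2(FPKM + 0.1) over the 8 libraries the order was *SMO*, *CDON*, *GLI3*, *GLI2*, *GAS1*, *BOC*, *HHIP*, *PTCH1* and *GLI1*. *SMO* had a mean of 4.88 FPKM, and *GLI1*, at the other end, 0.0276 FPKM. The order was taken from these libraries, and each gene was then compared with the next within libraries. The test was a two-sided exact sign-flip permutation test, adjusted over the 8 pairs. The sign of each mean step was thus set by the ordering. The p values describe how even a step was over libraries and are no support for the order. *SMO* was above *CDON* by 1.51 ± 0.46 log2 units (SD, n = 8; adjusted exact p = 0.0156). An offset from gene length is alike in every library, so the sign-flip test cannot see it. The lengths used were above the exon bases for *GLI3* (14116 against 10950) and *GLI2* (11255 against 7341). For *CDON* the length used was below the exon bases (8712 against 10600). With the exon bases *GLI3* would gain on *CDON*, and *GLI2* on *GLI3*. The order of *CDON*, *GLI3* and *GLI2* thus depends on the lengths used and is not settled here. Other small steps are open to the same offset. The smallest step with an adjusted exact p under 0.05 was *GLI3* over *GLI2*, with 0.23 ± 0.25 log2 units and *GLI3* higher in 6 of 8 libraries (adjusted exact p = 0.0357). Without PBS replicate 4 this step had an adjusted exact p of 0.0625, and it was 0.0714 when any of PBS replicates 1 to 3 or gluconate replicates 1 and 3 was left out. *HHIP* and *PTCH1* could not be ordered, with *HHIP* higher in 6 of 8 libraries and a mean difference of 0.04 log2 units (adjusted exact p = 0.977). Without PBS replicate 4, *HHIP* was above *PTCH1* by 0.55 log2 units (adjusted exact p = 0.0357). In the other 5 pairs the adjusted exact p was 0.0156 to 0.0312, of which *GAS1* over *BOC* missed 0.05 when any library but PBS replicate 2 or 4 was left out, and *PTCH1* over *GLI1* was at 0.05 without PBS replicate 1, gluconate replicate 1 or gluconate replicate 3.

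**Figure D1:**
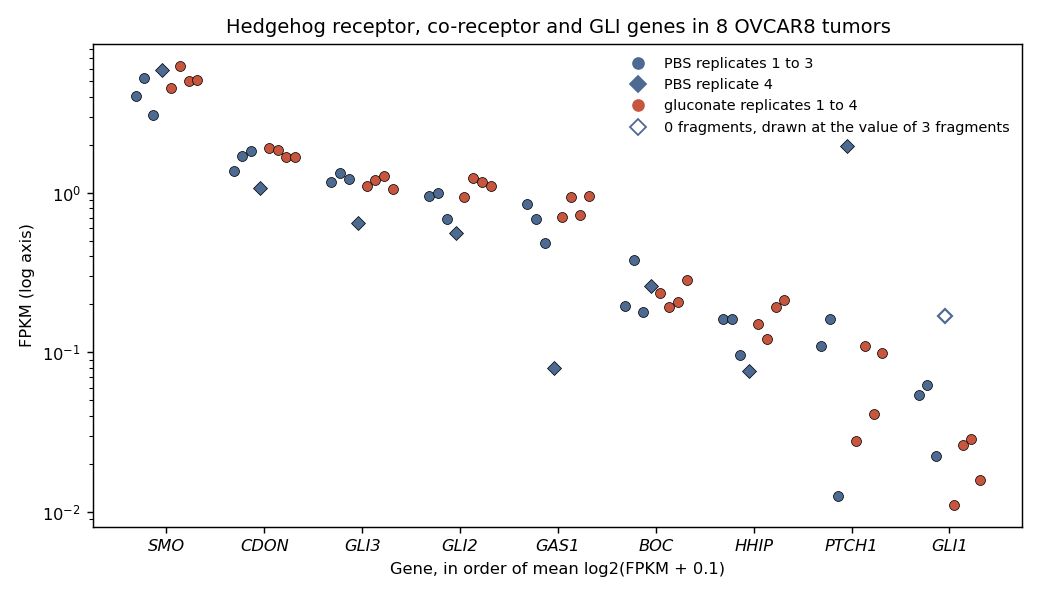
FPKM of the 9 genes (log axis) in each of the 8 tumor libraries, with PBS replicates in blue, gluconate replicates in red and PBS replicate 4 as a diamond; the open diamond marks 0 fragments, drawn at the 0.17 FPKM that 3 fragments would give. *SMO* lies between 3.05 and 6.23 FPKM, *GLI1* at or below 0.0627 FPKM, and in *PTCH1* PBS replicate 4 stands above all other libraries.

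With all libraries, none of the 9 genes was lower or higher in the gluconate tumors by the rule used for all genes, which asks for an unadjusted p under 0.05 in limma's test and for 1 log2 unit or more in either direction. Over the 12486 genes tested, which had a mean of at least 0.5 FPKM, 0.104% were lower and 0.192% were higher by this rule. Of the 9 genes, 5 passed this minimum (*SMO*, *GLI2*, *GLI3*, *GAS1* and *CDON*), and *PTCH1*, *GLI1*, *HHIP* and *BOC* did not. All 9 were also compared by the two-sided exact permutation test, which gave p = 0.0857 to 0.886 with 4 libraries a group, where the smallest p it allows is 0.0286. At an unadjusted p under 0.05 in limma, 0 of the 5 passed, against 4.62% of all genes tested, and limma's voom on the recovered fragments gave 1 (*GLI2*) of the 5, against 4.75%. Without PBS replicate 4 none of these 5 was lower or higher either, against 0.0638% and 0.0239% of all genes tested. With no minimum and without that library, 0 of the 9 were, against 15 lower and 19 higher of 24160 genes. Groups did not separate for any of the 9 genes, with or without PBS replicate 4, while 3.49% of all genes tested had groups that did not overlap (6.1% without PBS replicate 4).

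*PTCH1* was low in 7 of the 8 tumors and high in the eighth, PBS replicate 4. The PBS replicates 1 to 4 had 0.109, 0.163, 0.0127 and 1.95 FPKM (49, 75, 5 and 76 fragments). The gluconate replicates 1 to 4 had 0.0277, 0.109, 0.0413 and 0.0997 FPKM (11, 46, 16 and 42 fragments). PBS replicate 4 was far above every other library and PBS replicate 3 was the lowest of all, so the PBS tumors enclosed the gluconate tumors on both sides. On the log2(FPKM + 0.1) scale the gluconate mean differed by -1.02 with all libraries (two-sided exact permutation p = 0.343) and -0.15 without PBS replicate 4 (exact p = 0.686, where the smallest possible is 0.0571). In the fits without a minimum, limma's 95% interval of the difference ran from -2.84 to 0.80, and from -0.88 to 0.58 without that library.

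Leaving PBS replicate 4 aside, the highest *PTCH1* value was 12.9 times the lowest, and the interval of PBS replicate 3 (0.00413 to 0.0297 FPKM) lay below that of PBS replicate 2 (0.129 to 0.205 FPKM). Over the same 7 libraries the highest value of *GLI1* was 5.63 times its lowest, and in the other 7 genes the highest was 1.25 (*GLI3*) to 2.21 (*HHIP*) times the lowest. PBS replicate 4 was 11.9 times above the next library, at a depth of 3953206 fragments. Of the epithelial markers, *WT1*, *MECOM*, *CDH6* and *SOX17* were also highest in this library, with *WT1* at 6.58 FPKM against 1.07 to 1.82 FPKM in the others. *CDH6* and *SOX17* were only 0.0755 and 0.216 FPKM there, and their counting error at this depth is not given here. In the same list *PAX8* (32.4 FPKM against 38 to 50.7), *EPCAM* (10.3 against 15.7 to 22.3) and *KRT7* (124 against 185 to 393) were lowest there. The summed granulosa and theca markers were 29.1 FPKM there and 9.63 to 15.2 in the others, a sum carried by *FOXL2* alone, at 21.5 FPKM against 1.56 to 3.6 FPKM. The other expressed members of that list were not raised, with *AMH* at 1.4 FPKM against 1.73 to 4.03 and *INHBB* at 6.15 FPKM against 5.95 to 8.81, and the remaining 7 were under 0.5 FPKM in every library and at 0 in PBS replicate 4. Their part in the *PTCH1* value was not tested.

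**Figure D2:**
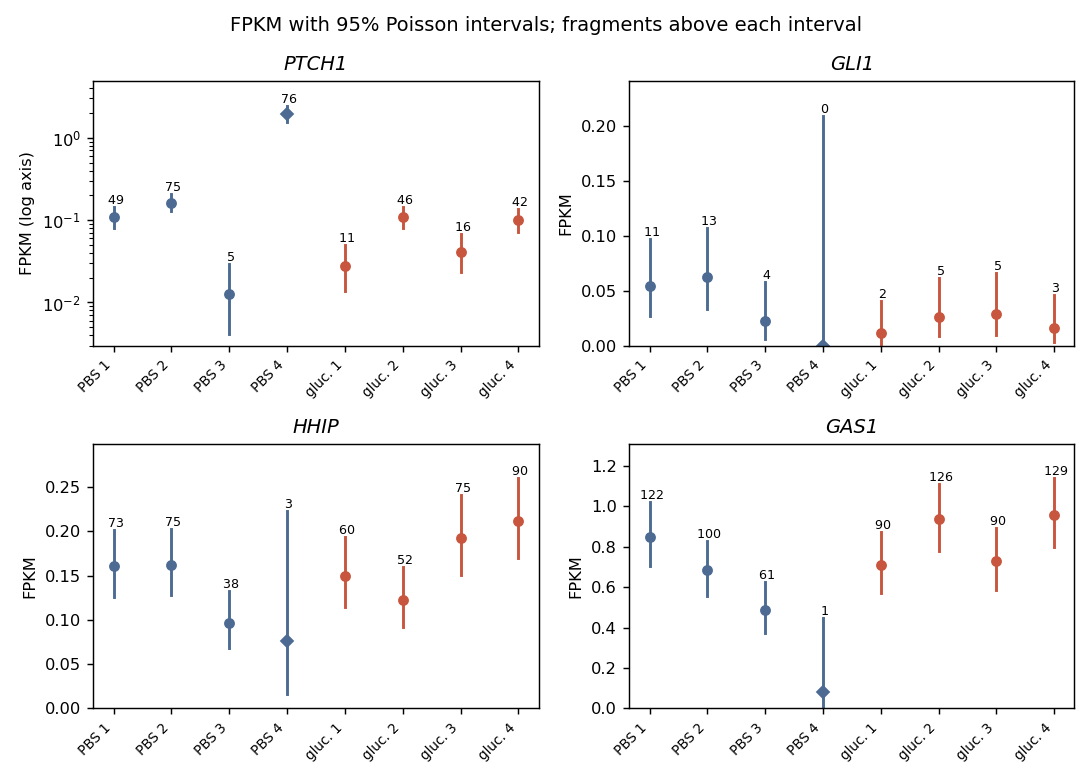
FPKM of *PTCH1* (log axis), *GLI1*, *HHIP* and *GAS1* in each library, with 95% Poisson intervals as lines and the number of fragments above each. The *PTCH1* value of PBS replicate 4 rests on 76 fragments, whereas its *GLI1*, *HHIP* and *GAS1* values rest on 0, 3 and 1.

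*SMO*, the transducer that PTCH1 holds back, was expressed in every tumor. The PBS replicates 1 to 4 had 4.05, 5.23, 3.05 and 5.87 FPKM, and the gluconate replicates 1 to 4 had 4.54, 6.23, 4.98 and 5.06 FPKM. The ranges overlapped, and the highest value was in gluconate replicate 2. The log2 fold change was 0.22 ± 0.20 (SE) with all libraries (limma, adjusted p = 0.746) and 0.36 ± 0.17 without PBS replicate 4 (limma, adjusted p = 0.807). It was 0.05 without PBS replicate 3, the lowest library, and 0.13 without gluconate replicate 2, the highest. *PTCH1* relative to *SMO* within a library was -4.31, -4.34, -4.80 and -1.54 log2 units in the PBS tumors and -5.18, -4.92, -5.17 and -4.69 in the gluconate tumors. The ratio was 1.24 log2 units lower in the gluconate mean (exact permutation p = 0.0571, adjusted p = 0.0762 over 4 ratios). Without PBS replicate 4 the difference was -0.51 (exact p = 0.114), and the lowest PBS tumor then lay within the range of the gluconate tumors.

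*GLI2*, the factor that chiefly activates targets, was detected in every tumor. It had 0.955, 1, 0.688 and 0.562 FPKM in PBS replicates 1 to 4 (490, 526, 309 and 25 fragments). In gluconate replicates 1 to 4 it had 0.947, 1.23, 1.16 and 1.1 FPKM (430, 591, 515 and 530 fragments). Gluconate replicates 2, 3 and 4 were above all PBS tumors, while gluconate replicate 1 lay below PBS replicates 1 and 2. The log2 fold change was 0.45 ± 0.21 (SE), with a 95% interval from -0.03 to 0.92 (limma, adjusted p = 0.74; exact permutation p = 0.0857). It was 0.38 with voom, where the unadjusted p was under 0.05 (adjusted p = 0.901), and 0.31 without PBS replicate 4 (limma, adjusted p = 0.813).

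Leaving PBS replicate 4 aside, *GLI3* was the steadiest member. The PBS replicates 1 to 4 had 1.17, 1.33, 1.22 and 0.645 FPKM, and the gluconate replicates 1 to 4 had 1.1, 1.21, 1.27 and 1.06 FPKM. Only PBS replicate 4 lay outside a narrow band. The log2 fold change was 0.12 ± 0.22 (SE; limma, adjusted p = 0.851) and turned to -0.09 ± 0.13 without PBS replicate 4. *GLI2* relative to *GLI3* was -0.26, -0.37, -0.75 and -0.17 log2 units in the PBS tumors and -0.20, 0.01, -0.12 and 0.05 in the gluconate tumors. The difference of 0.32 log2 units had an exact permutation p of 0.0571 (adjusted over 4 ratios, 0.0762), and it was 0.40 without PBS replicate 4 and 0.21 without PBS replicate 3. The groups overlapped through PBS replicate 4 and gluconate replicate 1, and without PBS replicate 4 the gluconate tumors were all above the PBS tumors (exact p = 0.0571, the smallest possible).

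*GLI1*, which is transcribed in response to the pathway, was barely detected. It had 11, 13, 4 and 0 fragments in PBS replicates 1 to 4 (0.0542, 0.0627, 0.0225 and 0 FPKM) and 2, 5, 5 and 3 fragments in gluconate replicates 1 to 4 (0.0111, 0.0262, 0.0286 and 0.0158 FPKM). At the depth of PBS replicate 4, a count of 0 allows up to 0.17 FPKM by the limit of 3 fragments (0.21 FPKM by the upper end of the two-sided Poisson interval), which is above every value measured in the other tumors. PBS replicates 1 and 2 were the highest, and PBS replicate 3 lay among the gluconate tumors. The difference in log2(FPKM + 0.1) was -0.14 (exact permutation p = 0.4) and, without PBS replicate 4, -0.27 (exact p = 0.171). It was -0.07 without PBS replicate 1 and -0.04 without PBS replicate 2. In limma without a minimum, the difference of -0.27 without PBS replicate 4 had an unadjusted p under 0.05 (adjusted p = 0.888), as did 4.9% of all genes.

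With all libraries and the pseudocount of 0.1, *GLI1* relative to *GLI2* was the only ratio of the 4 whose groups lay apart. It was -2.77, -2.76, -2.69 and -2.73 log2 units in the PBS tumors and -3.24, -3.39, -3.30 and -3.38 in the gluconate tumors, a difference of -0.59 (exact permutation p = 0.0286, the smallest possible; adjusted over 4 ratios, 0.0762). At these levels the ratio is shaped by the pseudocount of 0.1, which alone sets the *GLI1* term of PBS replicate 4, and with a pseudocount of 0.01 the difference was -0.74 with an exact p of 0.171. With no pseudocount, *GLI1* was 5.68%, 6.25% and 3.27% of *GLI2* FPKM in PBS replicates 1 to 3 and 1.18%, 2.14%, 2.45% and 1.43% in gluconate replicates 1 to 4. These 3 PBS tumors were above all 4 gluconate tumors (exact permutation p = 0.0571, the smallest possible), and in PBS replicate 4 the limit of 3 fragments allows up to 30.3%. The *GLI1* values behind this rest on 28 fragments in the PBS and 15 in the gluconate tumors.

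*HHIP*, the ligand-binding antagonist, was low in all tumors. It had 0.161, 0.162, 0.0958 and 0.0764 FPKM in PBS replicates 1 to 4 and 0.15, 0.122, 0.192 and 0.212 FPKM in gluconate replicates 1 to 4. The groups overlapped, with gluconate replicates 3 and 4 highest, and the difference was 0.27 log2 units (exact permutation p = 0.2) and 0.17 without PBS replicate 4. The antisense gene *HHIP-AS1* shares 178 exon bases with *HHIP* in GENCODE 29 and was at 2.04 to 4.13 FPKM, 18.7 to 32.2 times the *HHIP* value. Whether the counting used strand is not given in the sources used here, so *HHIP* values are uncertain by reads of the shared bases.

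Among the co-receptors *CDON* was the highest, and *GAS1* varied most once PBS replicate 4 was included. *GAS1*, a membrane-anchored protein of growth arrest, had 0.851, 0.683, 0.486 and 0.0804 FPKM in PBS replicates 1 to 4 and 0.71, 0.936, 0.728 and 0.96 FPKM in gluconate replicates 1 to 4. The value of PBS replicate 4 is 1 fragment, with an interval of 0.00204 to 0.448 FPKM, and is the lowest. The log2 fold change of *GAS1* was 0.81 ± 0.47 (SE; limma, adjusted p = 0.74) with all libraries and 0.29 ± 0.21 without PBS replicate 4. *CDON* had 1.37, 1.71, 1.83 and 1.07 FPKM in PBS replicates 1 to 4 and 1.9, 1.85, 1.67 and 1.67 FPKM in gluconate replicates 1 to 4. The gluconate tumors lay in a narrow band at the upper end of the PBS range, and the log2 fold change was 0.26 ± 0.18 (limma, adjusted p = 0.74), or 0.12 ± 0.13 without PBS replicate 4. *BOC* had 0.195, 0.38, 0.18 and 0.26 FPKM in PBS replicates 1 to 4 and 0.235, 0.192, 0.206 and 0.286 FPKM in gluconate replicates 1 to 4. PBS replicate 2 was the highest, and *BOC* differed by -0.08 log2 units (exact permutation p = 0.743). *BOC* relative to *CDON* differed by -0.33 log2 units (exact p = 0.257, adjusted over 4 ratios 0.257), or -0.17 without PBS replicate 4 and -0.53 without PBS replicate 3. *CDON* shares 2831 exon bases with *VSIG10L2* and *BOC* 513 with *CFAP44*, each on the opposite strand, so the same limit of strand applies to them. It applies also to *PTCH1*, which shares 711 exon bases with the antisense gene *AL161729.1*, and to *SMO*, which shares 129 with *AC011005.4*.

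**Figure D3:**
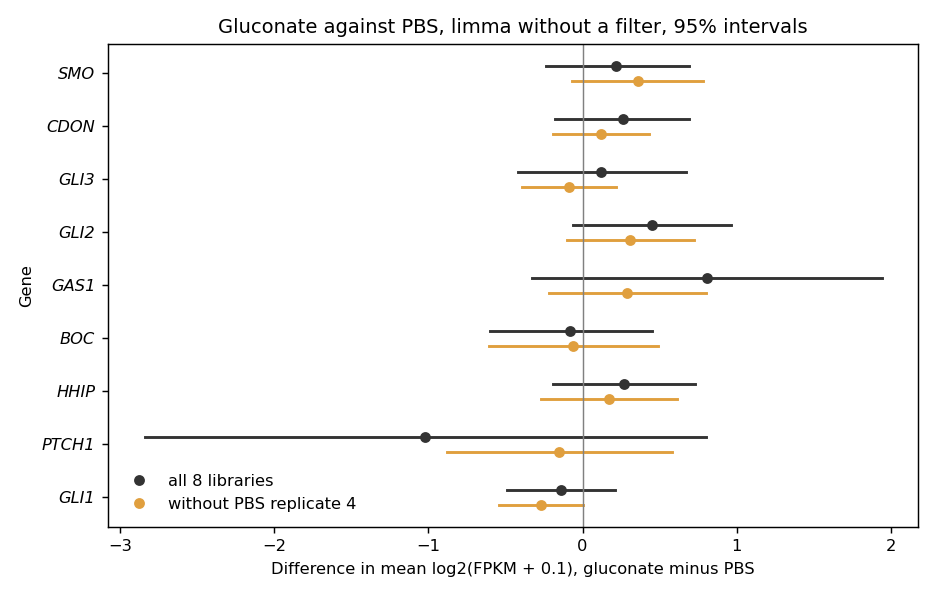
Difference in mean log2(FPKM + 0.1), gluconate minus PBS, for the 9 genes with limma's 95% intervals in the fits without a minimum, with all 8 libraries (black) and without PBS replicate 4 (orange). With all libraries every interval includes 0; *PTCH1* moves from -1.02 to -0.15 and *GAS1* from 0.81 to 0.29 when PBS replicate 4 is left out.

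By direction, 6 of the 9 differences were positive with all libraries and 5 without PBS replicate 4, with a median of 0.22 and 0.12 log2 units. Over all genes in the fits without a minimum the median was 0.05 and 0.01. In bulk tumors, fewer cells of a type and less RNA per cell cannot be told apart.

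PBS replicate 4 was below the other 7 libraries in 6 of the 9 genes (*GLI1*, *GLI2*, *GLI3*, *HHIP*, *GAS1* and *CDON*), above them in *PTCH1*, and inside their range in *SMO* and *BOC*. Its 95% Poisson interval lay wholly outside the values of the others in *PTCH1*, *GLI3* and *GAS1*, while that of *GLI1* and *HHIP* covered the value of every other library. Over all genes tested it was below the others in 58% and above them in 13.7%, so the share of the 9 genes below is near that of all genes. Among the other 7 libraries, PBS replicate 3 was the lowest in 6 of the 9 genes, against 25.7% of all genes tested.

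**Figure D4:**
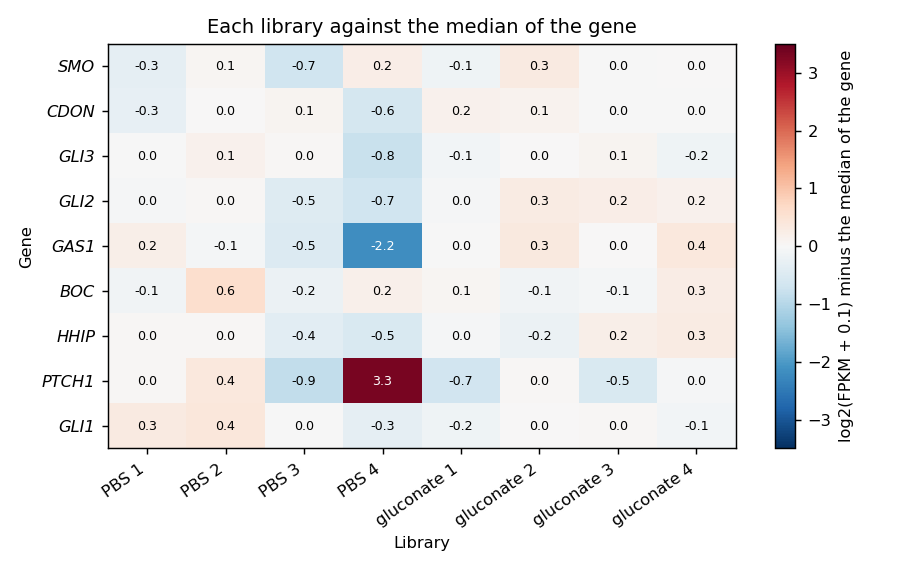
Heat map of log2(FPKM + 0.1) minus the median of the gene, for the 9 genes (lines) in the 8 libraries (columns), red above and blue below the median. The strongest cells are both in PBS replicate 4, *PTCH1* above and *GAS1* below the median, at 1.95 and 0.0804 FPKM.

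The other genes of the pathway were read from a list of 59 genes in 8 roles, of which 45 passed the minimum. By the rule above 1 was lower (*SFRP1*) and 0 were higher, where 0.104% and 0.192% of all genes tested were. *SFRP1* passed the minimum only through the PBS group, in which it is high, so nothing is read from this count. The median log2 fold change was 0.08, against 0.07 over all genes tested. Without PBS replicate 4 the medians were -0.01 and 0.00. Groups did not overlap for 2 of the 59, *DISP1* and *SFRP1* (3.39%, against 2.86% of all genes without a minimum). The ligands were scarce, with *SHH* at 0.0254 to 0.0799 FPKM, *IHH* at 0 to 0.102 FPKM and *DHH* at or below 0.0139 FPKM.

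*DISP1*, the transporter that releases lipid-modified ligand from the producing cell, was higher in all 4 gluconate tumors than in any PBS tumor. It had 0.575, 0.506, 0.439 and 0.319 FPKM in PBS replicates 1 to 4 and 0.667, 0.734, 0.681 and 0.679 FPKM in gluconate replicates 1 to 4. The log2 fold change was 0.52 ± 0.22 (SE; limma, adjusted p = 0.74), and it was 0.39 without PBS replicate 4. *DISP1* was singled out because its groups did not overlap, and it passed the minimum of 0.5 FPKM only through the gluconate group (mean 0.69 FPKM, against 0.46 FPKM under PBS). Its unadjusted limma p was under 0.05 in either case, as for 4.62% of all genes tested (6.21% without PBS replicate 4), and the value does not pass correction.

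*SFRP1*, a secreted antagonist of Wnt ligands that is also counted among GLI targets, was lower in all 4 gluconate tumors than in any PBS tumor. It had 0.481, 0.861, 0.253 and 3.46 FPKM in PBS replicates 1 to 4 and 0.178, 0.236, 0.171 and 0.11 FPKM in gluconate replicates 1 to 4. The log2 fold change was -1.76 ± 0.62 (SE; limma, adjusted p = 0.74). Without PBS replicate 4 *SFRP1* no longer reached the minimum. The fit without a minimum and without PBS replicate 4 gave -1.11 (limma, adjusted p = 0.888). It met the rule on unadjusted p and fold there, as did 15 of 24160 genes in the lower direction. *SFRP1* was singled out because its groups did not overlap in these libraries, so nothing is read from this either. As in *PTCH1*, PBS replicate 4 was the highest library, 4.01 times above the next.

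The other tested targets on the list did not pass. Of the 11 targets outside the 9 genes, 7 were tested, with log2 fold changes from -1.76 to 0.63 and a median of 0.04. *CCND1*, the cyclin of early cell cycle, was abundant, at 106 to 122 FPKM in the PBS tumors and 98 to 122 in the gluconate tumors. Of the 14 genes that restrain or degrade GLI proteins all were tested, 7 had a positive and 7 a negative log2 fold change, and 0 passed an unadjusted p under 0.05, as 4.62% of all genes tested did. *SUFU*, which tethers GLI proteins, had 3.06, 3.62, 3.79 and 2.08 FPKM in PBS replicates 1 to 4 and 3.22, 3.52, 3.29 and 2.93 FPKM in gluconate replicates 1 to 4. *CUL3*, the scaffold of a ubiquitin ligase, stood at 48.6 FPKM in PBS replicate 4, while the other 7 libraries had 13.1 to 15 FPKM. The 8 transducers at the cilium and 9 of the 10 genes of cilium assembly were tested, and 0 passed. In receptor turnover 0 of 5 passed with all libraries, and *SMURF2*, a ubiquitin ligase, had an unadjusted p under 0.05 in limma without PBS replicate 4 (log2 fold change -0.45), as did 6.21% of all genes, with PBS replicate 3 the highest at 53.6 FPKM.

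**Figure D5:**
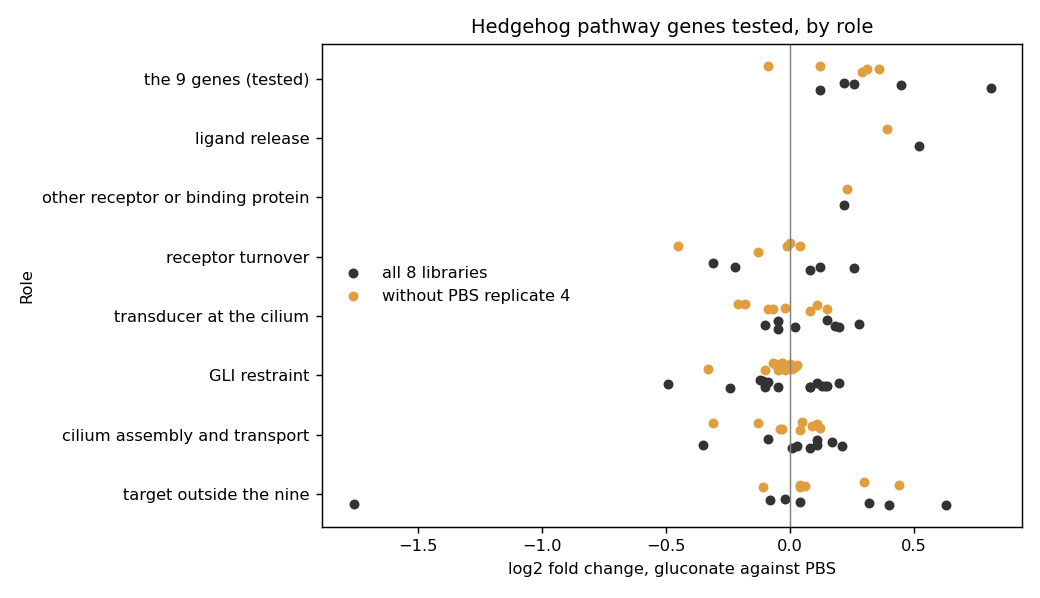
Log2 fold change, gluconate against PBS, of the tested pathway genes by role, with all 8 libraries (black) and without PBS replicate 4 (orange); each point is a gene, and the spread within a line is only for display. *SFRP1* lies apart at -1.76, and *DISP1* is the single tested gene of ligand release.

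Genes with the most similar pattern were sought among all genes tested, by the root mean square difference of log2(FPKM + 0.1) after each gene was centred. Over the 8 libraries the nearest to *PTCH1* were *FOXL2* (0.19), *HOXC6* (0.22) and *NOVA1* (0.25), all high in PBS replicate 4. Over the 7 libraries without it they were *EIF4E3* (0.09), *NR2F1* (0.13) and again *FOXL2* (0.14), of which *EIF4E3* had reached the minimum of 0.5 FPKM only through PBS replicate 4 (2.23 FPKM, and 0.163 to 0.479 in the others), against a spread of 0.42 in *PTCH1* itself. *FOXL2* had 2.87, 3.6 and 1.56 FPKM in PBS replicates 1 to 3 and 1.89, 3.06, 1.88 and 2.18 FPKM in gluconate replicates 1 to 4, and like *PTCH1* it was highest in PBS replicate 2 of these and lowest in PBS replicate 3. The nearest to *GLI2* were *PPP1R3D* (0.07), *ERFE* (0.08) and *LTBP3* (0.08), and without PBS replicate 4 *RNF121* (0.05), *LTBP3* (0.07) and *RHOB* (0.07). *EFNA4* was nearest to *CDON* over the 8 libraries and over the 7 (0.04 in each), followed by *SPC24* and *ACACB* over the 8 and by *CAPN10-DT* and *BBS1* over the 7. For *GLI3* the nearest over the 8 libraries were *GTF3C1* (0.04), *EDC4* and *SLC35F2* (0.05 each). *GAS1* was nearest to *DGCR6* (0.11), *C3orf18* and *OSER1-DT* (0.16 each), and over the 7 libraries to *MIR1915HG*, *PCDH1* (0.04 each) and *ADAMTSL3* (0.05). *SMO* was nearest to *SUSD4* (0.13), *INAFM2* and *ANKMY1* (0.15 each), and over the 7 libraries to *GRIN2D* (0.05), *FUT8-AS1* and *TCEA3* (0.08 each). The nearest genes were picked among all 12486 genes tested and share libraries and depth with the member, so the measure is a description.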

How the data were processed

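The authors deposited FPKM values for 24196 genes in 8 tumor libraries, on the genome build GRCh38 according to the submitters' processing notes. The aligner, the counting and the annotation are not given in the sources used here. Columns headed C were read as PBS and T as gluconate, since the study plots gluconate against PBS as the ratio of T to C. The labels also list 12 libraries of cultured cells, which are not analysed here.

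The 9 genes, the pathway list, the markers and the tests were chosen with earlier results of these data known. Whole fragments and depth were recovered from the steps of FPKM (100.00% of values within 0.001 of a whole fragment). Limma 3.58.1 (R 4.3.3; trend, two-sided) was run on log2(FPKM + 0.1) where the mean was at least 0.5 FPKM, with Benjamini-Hochberg adjustment over the 12486 genes. This scale understates changes of low genes. Single genes and ratios were compared by exact permutation over the 70 splits, or 35 without PBS replicate 4. Scripts were tested on simulated data and used Python 3.11.15, numpy 2.4.6, scipy 1.17.1, pandas 2.3.3 and matplotlib 3.10.9. Positions and overlaps came from GENCODE 29 and promoters from RefSeq.

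Named genes were the 9 genes, the cell type markers, genes that share exon bases with a member (outside the fixed rule, taken from the annotation), pathway genes beside the count of their role, and the 3 genes nearest in pattern to each member with a mean of at least 0.5 FPKM and to *PTCH1*; the nearest to *GLI3* without PBS replicate 4 are not reported here. Alternatives were pseudocounts of 1 and 0.01, no minimum, a minimum of 1 FPKM, median-ratio scaling, quantile normalization, an unmoderated fit, adjusted p, voom on fragments, a replicate block and the omission of each library. The combinations of no minimum, of voom and of no pseudocount with leaving out PBS replicate 4 were added after the data were seen.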

Additional observations from a re-analysis of the deposited data

Results flagged for a closer look

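In 4 PBS tumors a single library can be set against the spread of the others, and 3 measures passed Dixon's 95% limit for such a gap. All 3 concerned PBS replicate 4. *PTCH1* was 1.95 FPKM there and 0.0127 to 0.163 FPKM in the other 3 PBS tumors. The log2 ratio of *PTCH1* to *SMO* was -1.54 there and -4.80 to -4.31 in the others, which rests on the same *PTCH1* value. The depth was 3953206 fragments there and 39895393 to 46551535 in the others. In all, 28 groups of 4 libraries were examined, of which about 1.4 would pass by chance.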

How the results depend on the processing

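Of the 9 genes, 0 were lower or higher under the alternatives run, which cover *PTCH1*, *GLI1*, *HHIP* and *BOC* only in the fits with no minimum, the other alternatives testing at most 5 of the 9. *GLI3* turned to -0.09 without PBS replicate 4, to -0.03 with voom and to -0.10 with voom and without PBS replicate 4, and *BOC* turned to 0.08 without PBS replicate 2. With a library left out *GLI3* ranged from -0.09 to 0.23, *SMO* from 0.05 to 0.36, *GLI1* from -0.27 to -0.04, *PTCH1* from -1.54 to -0.15, *HHIP* from 0.17 to 0.36 and *CDON* from 0.12 to 0.36. *GLI2* had an unadjusted limma p under 0.05 without PBS replicate 1 (log2 fold change 0.53) and without PBS replicate 2 (0.56). The share of all genes at that p in these 2 fits is not given here. Both fits also called more genes by the rule, 28 lower and 63 higher, and 22 and 54, against 13 and 24. Nothing is therefore read from these *GLI2* values. The cause of the shifts above was not tested.

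Over all genes, the counts lower and higher (13 and 24) were 3 and 5 with a pseudocount of 1, 5 and 11 in the unmoderated fit, 7 and 9 with voom, and 0 and 0 by adjusted p. Quantile normalization gave 14 and 10, a different balance of directions. No minimum gave 61 higher, and voom without PBS replicate 4 gave 4 higher. Leaving out a library gave 6 to 46 lower and 3 to 63 higher, with 8 and 3 without PBS replicate 4, 28 and 63 without PBS replicate 1, 22 and 54 without PBS replicate 2, 46 lower without PBS replicate 3, 6 and 9 without gluconate replicate 3, and 8 and 15 without gluconate replicate 4. *SFRP1*, the 1 pathway gene lower, was lost (0) by adjusted p, with a minimum of 1 FPKM, with a pseudocount of 1, in the unmoderated fit, with voom and without PBS replicate 4, and by leaving out PBS replicate 4 (0 to 1 over the libraries left out), when it falls under the minimum. With no minimum and without PBS replicate 4 it was again counted.

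The difference of the *GLI1* to *GLI2* ratio was -0.74 with a pseudocount of 0.01, -1.50 with no pseudocount and without PBS replicate 4, and -0.62 to -0.57 with a library left out. The latter cannot give an exact p under 0.0571. That of *PTCH1* to *SMO* was -0.57 (exact p = 0.0286) with a pseudocount of 1, -1.52 (exact p = 0.229) with a pseudocount of 0.01, and -1.24 (exact p = 0.125) with a replicate block. In the order of levels, *HHIP* over *PTCH1* was -0.10 with a pseudocount of 1 and -0.10 to 0.55 with a library left out (0.00, -0.07, -0.09, -0.10 and -0.05 without PBS replicates 1 and 3 and gluconate replicates 1, 3 and 4). With a library left out, *GLI3* over *GLI2* was 0.15 to 0.27, *GAS1* over *BOC* 0.95 to 1.35 and *PTCH1* over *GLI1* 0.41 to 1.05, and each missed the threshold for some libraries.

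Deviations of same-numbered libraries correlated at -0.18, 0.08, 0.17 and -0.06. The labels state no pairing, and 4 such values cannot exclude it. With a replicate block, 15 genes were lower and 32 higher. The *GLI1* to *GLI2* difference was -0.59 with an exact p of 0.125, the smallest that 4 pairs allow.

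Depth limits *GLI1*, *HHIP* and *GAS1* in PBS replicate 4, where they rest on 0, 3 and 1 fragments.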
